A study of Mus musculus with 3 samples.

Results

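The 6 genes described are Fcgr1, Fcgr2b, Fcgr3, Fcgr4, Fcer1g and Fcrls, the mouse receptors for the Fc part of IgG, their shared signalling chain and an Fc receptor-like gene. They were taken by gene symbol from the 27998 genes of each deposited table, and all 6 were found. Single-cell RNA sequencing had been run on CD11b+ cells of fetal mouse brain at day E18.5 of gestation, enriched with magnetic beads after a Percoll gradient and read at the 3′ end of each transcript on the 10x platform. There were 3 libraries, 1 for each group: genotype Ncr1-cre with saline (called saline below), genotype Ncr1-cre with poly(I:C), and genotype Ncr1-cre;gzmbf/f, labelled Gzmb-cko, with poly(I:C). All 3 groups carried Ncr1-cre, a Cre driver of natural killer and other innate lymphoid cells, not of the myeloid cells that were sorted. Poly(I:C), a synthetic RNA duplex, is used to imitate a viral infection, and Gzmb encodes granzyme B. The groups are groups of pregnant mice. The sources used here do not give the dose, the injection day, how many fetuses were pooled, or whether a genotype refers to dam or fetus. With 1 library in each group, nothing about treatment or genotype could be tested.

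Fc receptors bind the constant part of antibodies. Fcgr1 (CD64, high affinity), Fcgr3 (CD16) and Fcgr4 (CD16-2) are activating receptors for IgG, and each needs the gamma chain encoded by Fcer1g, whose ITAM recruits the kinase Syk. Fcgr2b (CD32) is the inhibitory receptor, whose ITIM recruits the phosphatase encoded by Inpp5d. Fcrls is an Fc receptor-like molecule with no established antibody ligand, and is used as a marker of mouse microglia. Microglia are the macrophages of the brain tissue itself, and border macrophages are those of the meninges, choroid plexus and perivascular spaces.

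Fcgr2b, Fcgr3, Fcgr4 and Fcer1g lie together on chromosome 1, while Fcgr1 and Fcrls lie on chromosome 3 (build GRCm38, GENCODE M21 annotation). The genes span chr3:96282909-96293969 for Fcgr1 (ENSMUSG00000015947, minus strand), chr1:170958617-170976547 for Fcgr2b (ENSMUSG00000026656, minus strand) and chr1:171051174-171064935 for Fcgr3 (ENSMUSG00000059498, minus strand). Fcgr4 (ENSMUSG00000059089, plus strand) spans chr1:171018920-171029761, Fcer1g (ENSMUSG00000058715, minus strand) spans chr1:171229572-171234365, and Fcrls (ENSMUSG00000015852, minus strand) spans chr3:87250758-87263738. Fcgr2b overlaps the antisense gene Gm38204, and the sources used here do not say whether the counting used strand. Fcgr2b, Fcgr3 and Fcgr4 are paralogs, so the split of reads between them carries an uncertainty that the tables do not show.

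The promoters of 4 members are shown because 2 of these genes, Fcgr1 and Fcgr4, were high in microglia that carried interferon-induced transcripts, and the other 2, Fcgr3 and Fcrls, were not. Each is 300 bases from RefSeq (GRCm38.p6), from 250 bases before the annotated start to 50 bases after it, read 5′ to 3′ on the gene's strand. The windows are chr3:96293920-96294219 for Fcgr1, chr1:171018676-171018975 for Fcgr4, chr1:171059354-171059653 for Fcgr3 (1 of 2 windows listed for that gene) and chr3:87263475-87263774 for Fcrls. Capitals mark a match to TTCNNNGAA, the letters of a gamma-activated site, or to an ISRE-type pattern (interferon-stimulated response element: GAAA, 2 bases of any kind, GAAA), with both strands searched.
Fcgr1: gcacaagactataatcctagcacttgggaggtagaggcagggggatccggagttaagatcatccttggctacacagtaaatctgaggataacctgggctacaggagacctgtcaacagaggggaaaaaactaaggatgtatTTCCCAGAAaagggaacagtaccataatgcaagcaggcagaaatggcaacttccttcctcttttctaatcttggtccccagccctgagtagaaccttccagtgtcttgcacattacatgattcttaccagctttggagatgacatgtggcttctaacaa
Fcgr4: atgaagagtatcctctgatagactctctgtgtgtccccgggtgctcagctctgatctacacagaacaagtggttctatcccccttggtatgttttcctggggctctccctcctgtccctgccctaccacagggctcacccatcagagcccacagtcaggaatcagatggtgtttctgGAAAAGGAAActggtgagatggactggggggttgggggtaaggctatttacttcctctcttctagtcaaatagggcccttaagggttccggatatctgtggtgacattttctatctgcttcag
Fcgr3: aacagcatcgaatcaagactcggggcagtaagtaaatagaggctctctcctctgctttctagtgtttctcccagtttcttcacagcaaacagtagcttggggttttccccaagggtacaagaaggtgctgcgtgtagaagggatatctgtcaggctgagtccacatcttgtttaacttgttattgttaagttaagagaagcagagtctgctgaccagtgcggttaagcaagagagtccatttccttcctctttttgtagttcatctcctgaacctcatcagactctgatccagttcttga
Fcrls: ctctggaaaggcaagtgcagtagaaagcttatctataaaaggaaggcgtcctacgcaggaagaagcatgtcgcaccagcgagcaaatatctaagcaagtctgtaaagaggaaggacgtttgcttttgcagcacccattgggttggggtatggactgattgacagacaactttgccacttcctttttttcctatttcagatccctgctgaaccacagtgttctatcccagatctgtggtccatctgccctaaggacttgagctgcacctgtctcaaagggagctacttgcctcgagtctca
The Fcgr1 window held TTCCCAGAA, which began at -109 relative to the start, and the Fcgr4 window held an ISRE-type match that began at -73. The Fcgr3 and Fcrls windows held no match to either pattern, and neither did those of Fcgr2b and Fcer1g. Fcer1g was also higher in the microglia with interferon-induced transcripts (log2 fold 0.50, given below), so matches did not follow the levels in all members. Of 32851 promoter windows of this length, 8.30% held TTCNNNGAA, 3.44% held the ISRE-type pattern and 11.3% held at least one of them. The letters GAGGAA, a core bound by the myeloid factor PU.1, were found on either strand in the windows of Fcgr1, Fcgr3, Fcgr4 and Fcrls and in 28.3% of all windows. These are matches of letters, not measured binding sites.

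The libraries are given throughout in the order saline, Ncr1-cre poly(I:C), Gzmb-cko poly(I:C). They held 12148, 10759 and 13447 cells with at least 500 genes and at most 10% mitochondrial UMIs, with 5203, 5147 and 6059 median UMIs (unique molecules) per cell. The lowest UMI total of a deposited barcode was 3133, 500 and 500, and 63 to 71 barcodes were shared between any 2 libraries. The targeted gene is Gzmb, for which 61, 127 and 2 UMIs were counted, in 4, 6 and 1 cells. Since only 3, 3 and 0 cells held a UMI of the natural killer gene Ncr1, these counts say little about the deletion. Erythroid transcripts made up 97692, 54509 and 25337 CPM (counts-per-million of the class's UMIs) of the microglial RNA, so libraries differed in free hemoglobin RNA.

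Cells were assigned by single genes. Microglia held a P2ry12 UMI and no Mrc1 (5452, 4519 and 5399 cells), and border macrophages held Mrc1 and Pf4 (1125, 686 and 1896 cells). Monocytes held Ccr2 and Ly6c2 (718, 510 and 465 cells), neutrophils at least 20 UMIs of each of S100a8 and S100a9 (543, 562 and 212 cells), and B cells Cd79a and Cd79b (58, 38 and 61 cells). Of the kept cells 60.9, 56.4 and 58.0% met at least 1 of these gates. Itgam, the gene of CD11b, was at 271, 331 and 284 CPM in microglia. Each class had the markers of its name, except that Ly6c1 was at 0 in monocytes, but all of them also held microglial RNA. The 11 microglial markers summed to 9250 to 11702 CPM in microglia, 6049 to 6444 CPM in border macrophages, 1491 to 2863 CPM in monocytes, 2076 to 3578 CPM in neutrophils and 3292 to 3445 CPM in B cells. P2ry12 was at 798 to 1260 CPM in microglia, 406 to 554 CPM in border macrophages, 135 to 201 CPM in monocytes, 218 to 312 CPM in neutrophils and 231 to 291 CPM in B cells. Therefore levels in the last 4 classes were also taken in cells without macrophage markers, a choice made after seeing the data. These are border macrophages (187, 142 and 282 cells) and monocytes (323, 317 and 256 cells) with no P2ry12 and no Tmem119 UMI. Neutrophils and B cells also had to have no Csf1r UMI (139, 317 and 65 neutrophils, 12, 22 and 21 B cells). Most border macrophages as gated thus held a P2ry12 or Tmem119 UMI. Free RNA was gauged in neurons, choroid plexus cells and erythroid cells without Csf1r.

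Levels are the summed UMIs of a class, in CPM, and SDs are over the 3 libraries, which differ in treatment and genotype. Each transcript is tagged at its 3′ end once, so levels were not divided by length. Classes were compared on the 15 sums of 5 disjoint classes in 3 libraries with edgeR's quasi-likelihood test, the library as a term, and Benjamini-Hochberg adjustment over 11418 genes. These p-values rest on the spread over 3 libraries, which edgeR estimates with information shared between genes. Of the 60 tests (6 genes in 10 pairs of classes), 43 had an adjusted p of at most 0.05. For microglia, 1 of 6 members passed against border macrophages (10.5% of all genes did), 6 against monocytes (53.4%), 4 against neutrophils (46.9%) and 5 against B cells (28.1%). For border macrophages, 5 passed against monocytes (48.6%), 4 against neutrophils (43.7%) and 5 against B cells (28.2%). For monocytes, 3 passed against neutrophils (35.8%) and 6 against B cells (32.6%), and for neutrophils 4 against B cells (36%). Between cells without macrophage markers, 19.7% of all genes passed for microglia against border macrophages, 56.1% against monocytes and 55.8% against neutrophils, 43.3% for border macrophages against monocytes, and 41.8% for monocytes against neutrophils.

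**Figure D1:**
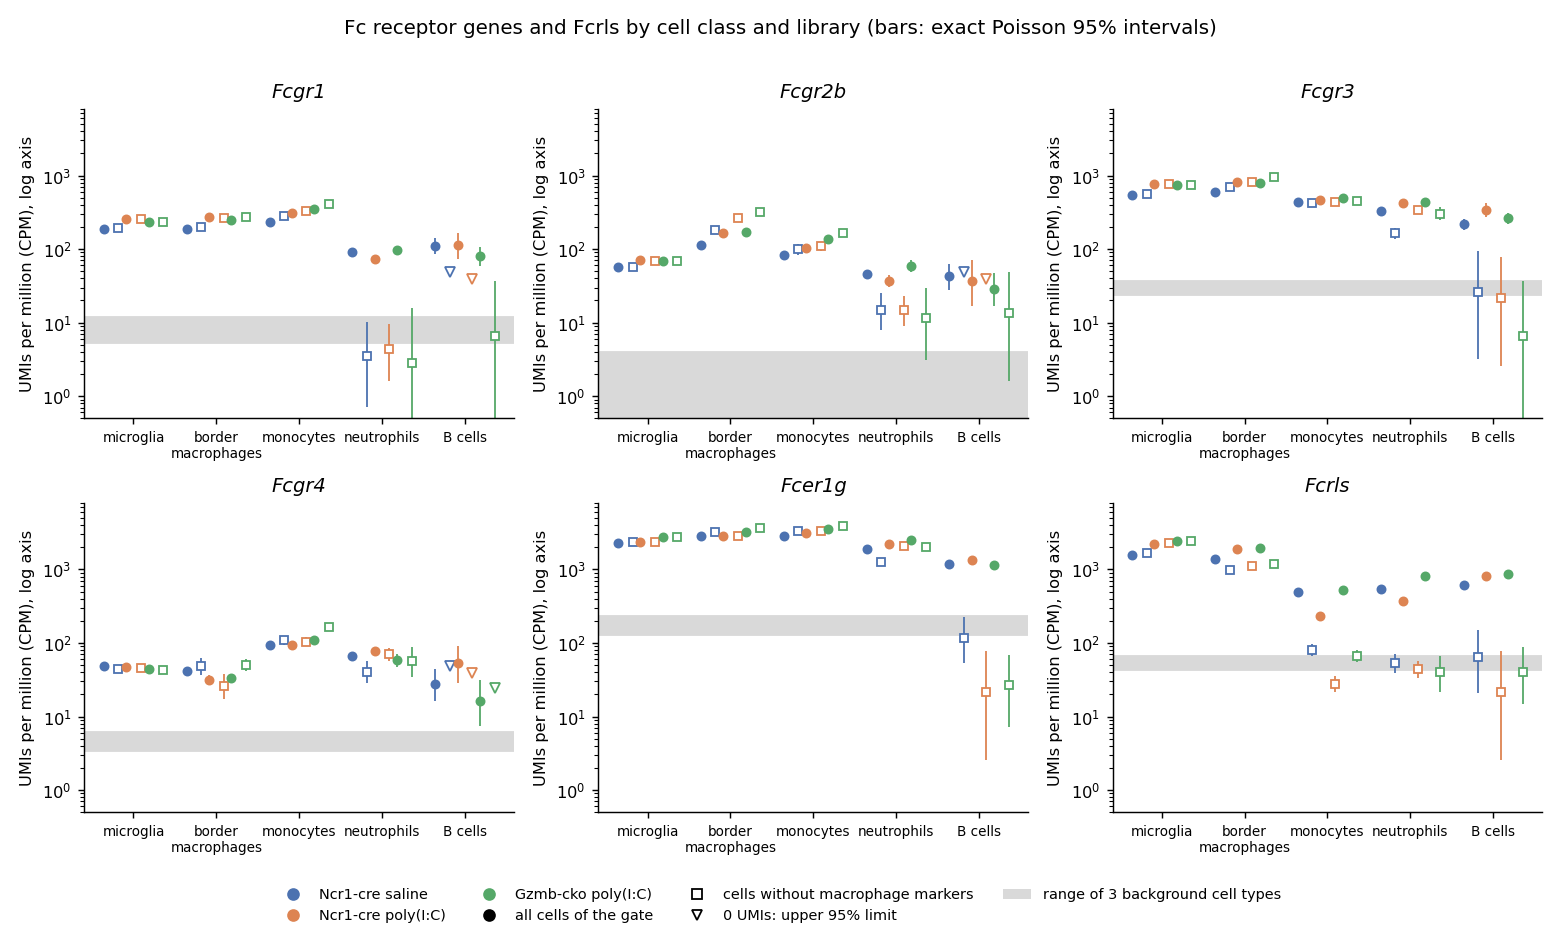
Level of each of the 6 genes (CPM, log axis) by cell class and library. Filled circles are all cells of a class, open squares are the cells without macrophage markers, triangles mark upper limits where no UMI was counted, and the grey band is the range of means of the 3 background cell types. Fcgr1 and Fcrls of neutrophils fall into or near the band once cells with macrophage markers are left out, while Fcgr3, Fcgr4 and Fcer1g of neutrophils stay above it.

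Fcgr3 was the most abundant of the IgG receptors in every class as gated. In microglia it stood at 543, 767 and 740 CPM (683 ± 122, SD, n = 3), and in border macrophages at 588, 810 and 799 CPM (733 ± 125, SD, n = 3). Both ranges overlapped and the classes did not differ beyond the spread (log2 fold of microglia over border macrophages -0.08, SE 0.12, adjusted p = 0.817, edgeR). Monocytes held 431, 460 and 493 CPM, neutrophils 326, 425 and 439 CPM, and B cells 219, 345 and 263 CPM. Every microglial value was above every monocyte value, by a log2 fold of 0.31 (SE 0.12, adjusted p = 0.0441, edgeR). That call was lost without Ncr1-cre poly(I:C) (0.23, adjusted p = 0.09504), without Gzmb-cko (0.31, adjusted p = 0.268), with doublets left out (0.35, adjusted p = 0.0644), with no library term (adjusted p = 0.139) and in the cells without macrophage markers (adjusted p = 0.0510). A Fcgr3 UMI was found in 90 to 93.3% of microglia, and in 64.8 to 75.0% of those thinned to 2000 UMIs per cell. Neurons, choroid plexus cells and erythroid cells, which should lack the gene, held 10.8 to 44.8 CPM over the 3 libraries. Neutrophils without macrophage markers still held 165, 339 and 305 CPM of Fcgr3, well above that background. B cells without macrophage markers held 26.1, 21.5 and 6.67 CPM, from 2, 2 and 1 UMIs, which was not above it.

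Fcgr1, the high-affinity receptor, was highest in monocytes. Its levels there were 236, 312 and 352 CPM (300 ± 59.0, SD, n = 3), against 190, 256 and 233 CPM in microglia (226 ± 33.9) and 189, 275 and 248 CPM in border macrophages (237 ± 43.6). Within each library the monocytes as gated were above both macrophage classes. This order did not hold in every library among cells of the disjoint classes with no UMI of the interferon-induced genes Ifit1, Ifit3 and Isg15. There monocytes held 193, 185 and 253 CPM, microglia 179, 238 and 226 CPM, and border macrophages 184, 262 and 221 CPM. Microglia were lower than monocytes by a log2 fold of -0.76 (SE 0.16, adjusted p = 6.9e-04, edgeR), and border macrophages by -0.71 (SE 0.16, adjusted p = 0.00146). Without the Gzmb-cko library these became -0.64 (adjusted p = 0.0503) and -0.62 (adjusted p = 0.0653). Over 12 alternatives the 2 folds ran from -0.83 to -0.51 and from -0.78 to -0.43. Microglia and border macrophages did not differ beyond the spread (-0.05, SE 0.15, adjusted p = 0.909).

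Neutrophils as gated held 91.3, 73.9 and 96.0 CPM of Fcgr1, with no overlap with monocytes. Those without macrophage markers held 3.46, 4.43 and 2.85 CPM, from 10 UMIs in all. The background cells held 3.63 to 14.15 CPM over the 3 libraries, so Fcgr1 in these neutrophils did not stand above free RNA at this depth. B cells as gated held 111, 112 and 79.9 CPM, and those without macrophage markers had 0, 0 and 1 UMI. The test of monocytes over neutrophils gave a log2 fold of 1.89 (SE 0.17, adjusted p = 6.2e-07, edgeR) for the gated cells and 5.66 (adjusted p = 3.1e-12) for those without the markers. The size of that fold thus moved with the cells used, and its direction did not.

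Fcgr4 had another order, with monocytes and neutrophils on top. Monocytes held 93.0, 93.1 and 110 CPM (98.8 ± 9.99, SD, n = 3) and neutrophils 66.8, 77.8 and 58.1 CPM (67.6 ± 9.88), against 48.1, 47.6 and 44.1 CPM in microglia (46.6 ± 2.18) and 41.9, 31.7 and 33.9 CPM in border macrophages (35.8 ± 5.35). As gated, both macrophage classes lay below every monocyte and neutrophil value. Neutrophils without macrophage markers held 40.4, 70.95 and 56.9 CPM, which in saline was below the 48.1 CPM of microglia. Background cells held 2.80 to 14.9, 2.90 to 7.47 and 0 to 4.95 CPM in the 3 libraries. The saline maximum was 31.0% of the microglial and 35.6% of the border macrophage level, so free RNA is a sizeable part of what these low levels could hold. The log2 fold of microglia over monocytes was -1.52 (SE 0.17, adjusted p = 2.0e-06, edgeR), and that of border macrophages over monocytes was -1.86 (SE 0.18, adjusted p = 4.6e-07). Microglia were below neutrophils by -1.37 (SE 0.18, adjusted p = 1.6e-05), and by -1.42 (adjusted p = 4.7e-05) for neutrophils without macrophage markers. On class totals with no scaling factor the fold was -0.62, which still passed, and monocytes stood above neutrophils by 0.64 (adjusted p = 0.00389). Under TMM, the scaling of edgeR, monocytes and neutrophils (0.14, adjusted p = 0.596), and microglia and border macrophages (0.35, adjusted p = 0.258), did not differ beyond their spread. B cells without macrophage markers held no Fcgr4 UMI, which at their depth allows up to 39.2, 32.2 and 20.02 CPM. Even in monocytes a Fcgr4 UMI was seen in only 35.9, 36.9 and 44.3% of cells.

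Fcer1g, the gamma chain, was abundant in all 4 myeloid classes. It stood at 2323, 2377 and 2787 CPM in microglia (2496 ± 254, SD, n = 3), 2849, 2841 and 3276 CPM in border macrophages, 2821, 3171 and 3563 CPM in monocytes, and 1886, 2243 and 2485 CPM in neutrophils. The ranges of microglia and neutrophils overlapped, as did those of border macrophages and monocytes. Border macrophages lay above microglia in each library, but not beyond the spread (log2 fold of microglia over border macrophages -0.25, SE 0.16, adjusted p = 0.421, edgeR). Microglia were lower than monocytes by a log2 fold of -0.65 (SE 0.16, adjusted p = 0.00264, edgeR), which without the Gzmb-cko library was -0.63 (adjusted p = 0.0776). Border macrophages lay below monocytes by -0.40 (SE 0.16, adjusted p = 0.0474). That call held in 6 of 12 alternatives. It was lost with median-of-ratios scaling (-0.38, adjusted p = 0.05715), class totals (-0.13, adjusted p = 0.447), stricter gates (-0.27, adjusted p = 0.249), doublets left out (-0.46, adjusted p = 0.0823), no library term (adjusted p = 0.158) and without the Gzmb-cko library (-0.38, adjusted p = 0.284). In cells without macrophage markers it was lost too (-0.30, adjusted p = 0.325). The direction against neutrophils depended on the scaling: microglia over neutrophils was -0.47 (SE 0.16, adjusted p = 0.0235) under TMM and 0.27 (adjusted p = 0.0833) on class totals. S100a8 and S100a9 alone took 10.4 to 13.9% of the neutrophils' UMIs. B cells held 1187, 1353 and 1132 CPM as gated, and 9, 2 and 4 UMIs in all without macrophage markers. Background cells held 71.8 to 301 CPM over the 3 libraries. Tyrobp, the related adaptor DAP12 of other myeloid receptors, had a mean of 3063 CPM in microglia and 3880 CPM in monocytes.

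Nearly every microglial cell held the parts of an activating receptor. At least 1 of Fcgr1, Fcgr3 and Fcgr4 together with Fcer1g was detected in 94.97, 92.96 and 95.46% of microglia, in 98.0, 99.0 and 99.1% of border macrophages and in 95.5, 97.7 and 98.1% of monocytes. The same pair was seen in 29.2 to 36.7% of erythroid cells and 4.47 to 13.9% of neurons that should lack both. None of the 4 IgG receptors was detected in 4.16, 6.20 and 4.001% of microglia. The inhibitory Fcgr2b was found with that pair in 23.9, 28.0 and 29.9% of microglia, 49.7, 56.6 and 60.0% of border macrophages and 35.7, 40.4 and 52.3% of monocytes.

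Fcgr2b set the macrophage classes apart. It stood at 114, 166 and 170 CPM in border macrophages (150 ± 31.2, SD, n = 3) and at 56.5, 70.0 and 68.2 CPM in microglia (64.9 ± 7.35), with no overlap. With cells that held microglial markers kept in, it was the only 1 of the 6 members that differed between microglia and border macrophages. There 10.5% of all genes did (log2 fold of Fcgr2b -1.19, SE 0.14, adjusted p = 1.4e-05, edgeR). In border macrophages with no P2ry12 and no Tmem119 UMI it was at 183, 265 and 315 CPM, and the fold grew to -2.00 (adjusted p = 4.1e-09). Monocytes held 84.4, 102 and 139 CPM, above microglia in every library (microglia over monocytes -0.9999, SE 0.14, adjusted p = 1.9e-05). Border macrophages and monocytes did not differ beyond the spread as gated (0.19, adjusted p = 0.277), but did without the markers (0.84, adjusted p = 2.4e-04).

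Neutrophils held 45.9, 37.3 and 59.2 CPM of Fcgr2b, and 15, 14.8 and 11.4 CPM without macrophage markers, from 37 UMIs in all. Background cells held 0 to 8.41, 0 to 2.815 and 0 to 2.83 CPM in the 3 libraries. Fcgr2b is the only classical Fc receptor for IgG of mature B cells, yet the B cells as gated held 42.6, 37.4 and 29.1 CPM, below every microglial value, and those without macrophage markers held 0, 0 and 2 UMIs. Of those B cells, 5, 4 and 9 held a UMI of Vpreb1 or Igll1, genes of the surrogate light chain of immature B cells. Microglia were higher than B cells for Fcgr2b by a log2 fold of 1.06 (SE 0.26, adjusted p = 0.00642, edgeR), and without the Gzmb-cko library by 0.80 (adjusted p = 0.108).

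Activating and inhibitory transcripts were set against each other as Fcgr3 UMIs in percent of Fcgr3 plus Fcgr2b UMIs, a share that class totals and free hemoglobin RNA cannot move. It was 90.6% (95% Clopper-Pearson interval 90.2 to 91.0), 91.6% (91.3 to 92.0) and 91.6% (91.2 to 91.9) in microglia. Border macrophages had 83.8, 83.0 and 82.5%, and monocytes had 83.6, 81.9 and 78.1%. The values of microglia lay above those of both classes in all 3 libraries, so the inhibitory gene took a larger part in border macrophages and monocytes. Without macrophage markers the values moved further from those of microglia, to 79.3, 75.6 and 75.3% in border macrophages and 81.0, 79.9 and 73.1% in monocytes. Neutrophils stood at 87.7, 91.9 and 88.1%, and at 91.7, 95.8 and 96.4% without macrophage markers. Intervals here and below cover counting error only.

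**Figure D2:**
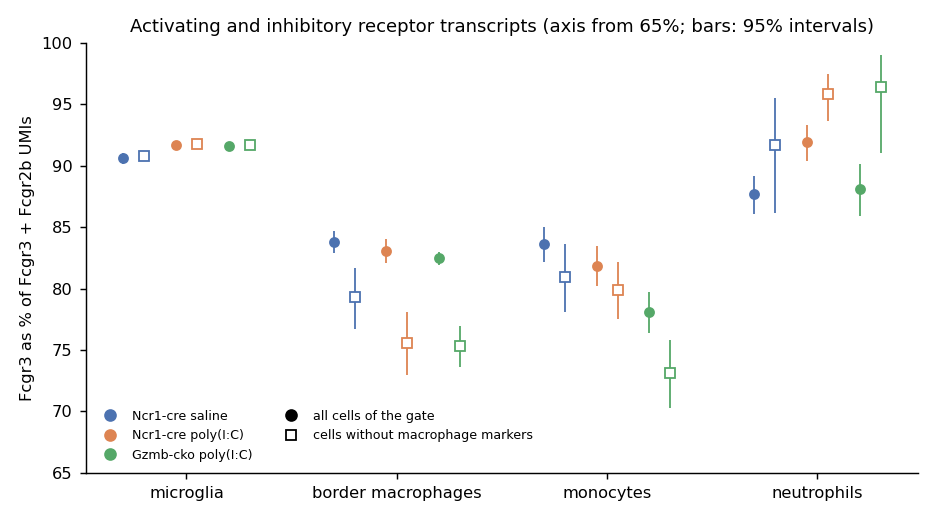
Fcgr3 UMIs as a percentage of Fcgr3 plus Fcgr2b UMIs in 4 cell classes and 3 libraries, with 95% Clopper-Pearson intervals; the axis starts at 65%. Microglia sit between 90.6 and 91.6%, above border macrophages and monocytes in each library.

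Fcrls separated brain macrophages from blood-derived cells. It stood at 1565, 2219 and 2409 CPM in microglia (2064 ± 443, SD, n = 3) and 1402, 1903 and 1930 CPM in border macrophages (1745 ± 297), with overlapping ranges. Monocytes held 486, 230 and 531 CPM, neutrophils 541, 377 and 819 CPM, and B cells 612, 814 and 874 CPM. The log2 fold of microglia over monocytes was 2.28 (SE 0.22, adjusted p = 4.4e-07, edgeR), that over neutrophils 1.21 (SE 0.22, adjusted p = 2.6e-04; 1.93 on class totals), and that over border macrophages 0.28 (SE 0.21, adjusted p = 0.526).

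Most of the Fcrls RNA outside the macrophage classes sat in cells that also held microglial markers. Without those markers, Fcrls was at 80.6, 28.0 and 66.7 CPM in monocytes and at 53.1, 43.6 and 39.9 CPM in neutrophils, next to 28.0 to 72.9 CPM in background cells of the 3 libraries. B cells without the markers had 5, 2 and 6 UMIs. Border macrophages without P2ry12 and Tmem119 kept 993, 1126 and 1198 CPM. Against these cells microglia were higher by a log2 fold of 0.90 (SE 0.23, adjusted p = 0.00785, edgeR), where 19.7% of all genes passed. The fold of microglia over monocytes became 5.003 (adjusted p = 6.7e-12), and monocytes over neutrophils went from -1.07 (adjusted p = 0.00122) to -0.52 (adjusted p = 0.194). Thus the order of Fcrls between monocytes and neutrophils depended on the cells used.

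Across the 15 sums, which share libraries and so are not independent, each member had its own close companions among 4566 genes, by Pearson's r of log2(CPM + 1). Fcrls ran closest to C1qc (r = 0.995) and C1qb (0.994), which encode complement chains, then to Lgmn (0.992) and Bin1 (0.991). Fcer1g ran with Tmsb4x (0.967), Cotl1 (0.9498), Adcy7 (0.948) and Tyrobp (0.942). Fcgr4 ran with Nfam1 (0.940), Fgl2 (0.939) and Gpx1 (0.936), and against Fcrls (-0.56). Fcgr1 lay nearest to Ctsh (0.967), Reep5 (0.9501), Leprot (0.947) and Vwa5a (0.946), and Fcgr2b nearest to Trf (0.958), Tmem106a (0.933), Ccl2 (0.910) and Ly96 (0.907). For Fcgr3 the list was Sh3glb1 (0.965), Rap2a (0.956), Rtn4 (0.953) and Tmem30a (0.952).

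Within microglia, subsets were set by the UMIs of other genes and compared by the same test on sums for each library. Of 24 tests of the members in 4 subsets, 16 passed. The strongest contrast was in the few microglia with at least 5 UMIs over Ifit1, Ifit3 and Isg15, which are induced by type I interferon (121, 92 and 73 cells, or 2.36, 2.12 and 1.39% of microglia). They were compared with microglia that held none of these UMIs, and 10.4% of 12482 genes passed, 7.27% higher and 3.16% lower.

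Fcgr4 stood at 161, 258 and 172 CPM in interferon-gene microglia and at 35.6, 37.9 and 37.3 CPM in the others. The groups did not overlap, and the log2 fold was 2.73 (SE 0.12, adjusted p = 4.5e-22, edgeR). Fcgr1 stood at 445, 789 and 521 CPM against 179, 238 and 226 CPM, again with no overlap (1.75, SE 0.08, adjusted p = 2.7e-20). Fcgr3 did not follow: it had 392, 564 and 581 CPM against 572, 791 and 752 CPM, a log2 fold of -0.14 (SE 0.07, adjusted p = 0.308) that on class totals was -0.47 (adjusted p = 1.9e-04). Fcrls was lower, with 756, 1193 and 1456 CPM against 1733, 2372 and 2509 CPM (-0.66, SE 0.07, adjusted p = 2.5e-09). Fcer1g was higher by 0.50 (SE 0.07, adjusted p = 1.6e-06), a call that was lost on class totals (0.17, adjusted p = 0.212). Fcgr2b had a log2 fold of 0.44 (adjusted p = 0.0620), which passed without the Gzmb-cko library (0.68, adjusted p = 0.00548).

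Fcgr1 was higher with each step in the number of interferon-gene UMIs, in all 3 libraries. From cells with 0 to cells with 1, 2 to 4, 5 to 9 and 10 or more such UMIs, Fcgr1 went from 179 through 207, 224 and 356 to 539 CPM in saline. It reached 871 CPM with Ncr1-cre poly(I:C) and 627 CPM with Gzmb-cko, from 238 and 226 CPM. Fcgr4 in the cells with 10 or more reached 189, 292 and 221 CPM. Because of this excess, the interferon-gene cells held 7.30, 8.74 and 4.28% of all Fcgr1 UMIs of microglia and 11.4, 16.0 and 7.62% of the Fcgr4 UMIs, with 3.14, 2.84 and 1.92% of all UMIs.

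**Figure D3:**
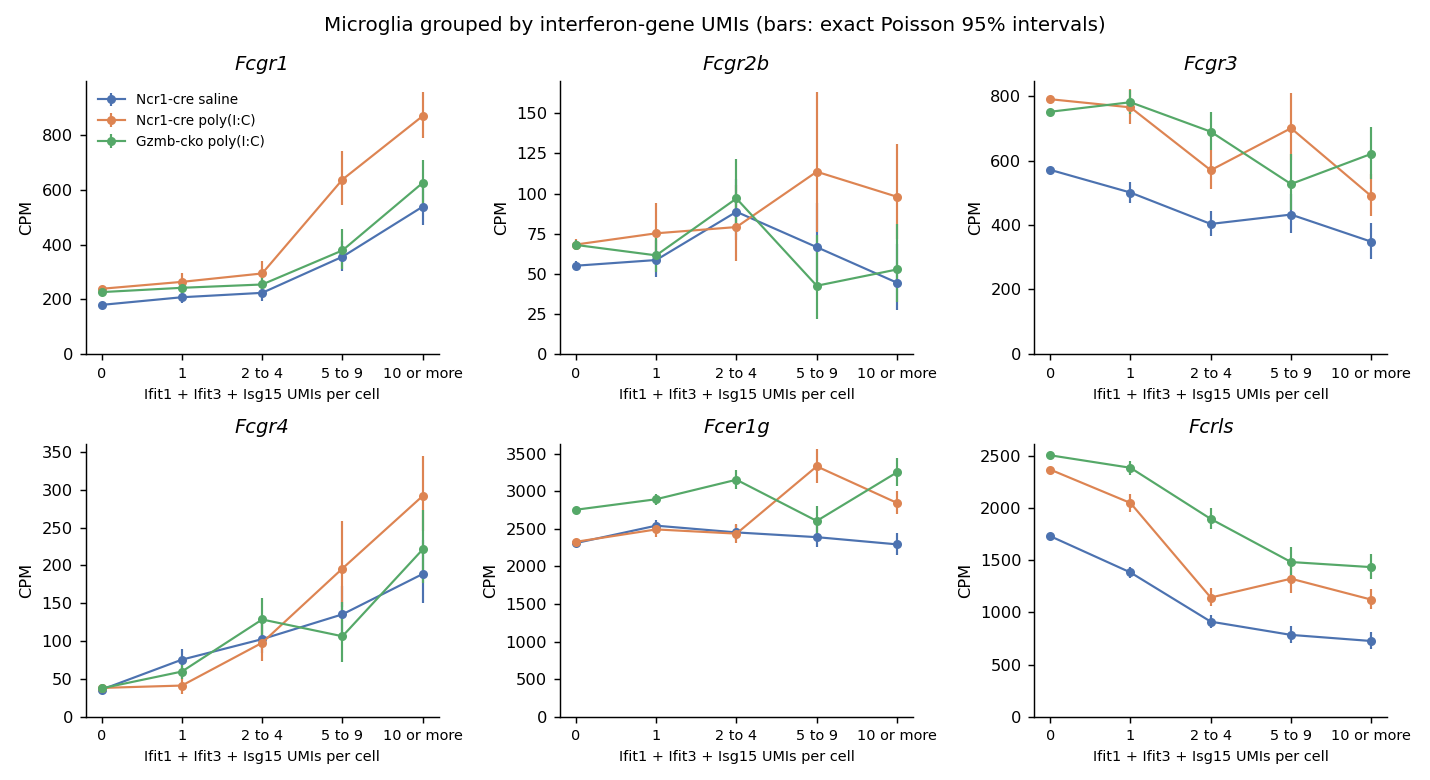
Levels of the 6 genes (CPM) in microglia grouped by the summed UMIs of Ifit1, Ifit3 and Isg15 (0, 1, 2 to 4, 5 to 9, 10 or more), 1 line for each library. Fcgr1 and Fcgr4 rise from the first to the last group in all 3 libraries, to 539, 871 and 627 CPM for Fcgr1, and Fcrls falls.

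Other transcripts moved with this subset. Microglial P2ry12 was at 542, 780 and 746 CPM in it, against 875, 1330 and 1102 CPM in the other microglia. The monocyte genes Ccr2 (44.0, 128 and 55.9 CPM against 14.8, 8.92 and 6.83) and Plac8 (330, 625 and 556 CPM against 50.2, 21.3 and 12.9) were higher, as was the interferon-induced factor Irf7 (236, 459 and 302 CPM against 7.98, 4.57 and 4.70). The interferon-gene microglia as a whole were also deeper, at 6091, 6742 and 7452 median UMIs against 4644, 5024 and 5636, and the part of depth in the gate was not tested. In the interferon-gene cells left after removing any with a Ly6c2, Ccr2, S100a8 or S100a9 UMI (33, 48 and 52 cells), the log2 folds of Fcgr4 (2.76, adjusted p = 1.9e-63) and Fcgr1 (1.84, adjusted p = 6.4e-79) were as large, where 7.07% of all genes passed. Those of Fcrls (-0.55, adjusted p = 9.7e-08) and Fcer1g (0.43, adjusted p = 8.5e-05) were smaller and still passed. The p-values of these few cells rest on a spread shared between genes, so their size is not read.

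The same split was described, with no test, in the other macrophage and monocyte classes. In monocytes with at least 5 such UMIs (106, 128 and 133 cells, or 18.1, 29.0 and 33.1%), Fcgr1 stood at 359, 535 and 531 CPM against 193, 185 and 253 CPM in monocytes with none. Fcgr4 stood at 147, 121 and 161 CPM against 77.2, 66.9 and 100.2 CPM, and the ratios for Fcgr3 were 1.04, 1.07 and 1.10. In border macrophages (25, 25 and 94 cells), Fcgr4 was at 182, 65.7 and 86.4 CPM against 34.8, 25.2 and 26.6 CPM and Fcgr1 at 300, 562 and 443 CPM against 184, 262 and 221 CPM. Fcgr1 and Fcgr4 were higher in all 3 classes and libraries. Fcgr2b was also higher in these cells, with ratios of 1.68, 1.49 and 1.22 in border macrophages and 1.23, 1.52 and 1.34 in monocytes, and Fcgr3 was nearly level in monocytes.

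Cycling microglia, with at least 2 UMIs over Mki67 and Top2a (1249, 676 and 999 cells), had less of all 6 genes than microglia with none, where 42.5% of all genes passed and 21.2% were lower. Fcgr3 fell most, with 447, 570 and 579 CPM against 618, 858 and 816 CPM (log2 fold -0.61, SE 0.04, adjusted p = 2.8e-07, edgeR). The others ran from -0.53 for Fcgr4 (adjusted p = 2.0e-04) through -0.37 for Fcer1g, -0.29 for Fcgr1 and -0.28 for Fcgr2b to -0.20 for Fcrls (adjusted p = 0.00237).

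Microglia with at least 10 Spp1 UMIs, a gene of microglia near axon tracts, numbered 206, 93 and 297. Fcgr1 was lower in them than in microglia without Spp1, at 137, 198 and 136 CPM against 204, 263 and 251 CPM (log2 fold -0.49, SE 0.07, adjusted p = 1.2e-07, edgeR). Fcer1g was higher, at 2915, 2717 and 3120 CPM against 2307, 2339 and 2752 CPM (0.41, SE 0.07, adjusted p = 2.3e-06), and the other 4 members did not pass, where 29.2% of all genes did.

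In microglia with at least 10 UMIs over the chemokine genes Ccl3 and Ccl4 (326, 563 and 671 cells), the inhibitory Fcgr2b was lower, at 42.2, 57.3 and 51.3 CPM against 59.8, 68.5 and 79.2 CPM (log2 fold -0.42, SE 0.09, adjusted p = 0.00172, edgeR). Fcrls (0.25, adjusted p = 0.00304), Fcer1g (0.24, adjusted p = 0.00372) and Fcgr4 (0.36, adjusted p = 0.0192) were higher, where 18.6% of all genes passed. Without the Gzmb-cko library Fcrls had an adjusted p of 0.112 and Fcer1g of 0.0897. For Fcgr4, the higher level was seen in saline (64.6 against 42.8 CPM) and Ncr1-cre poly(I:C) (57.5 against 42.2 CPM) and not in Gzmb-cko (42.8 against 43.5 CPM), and without saline the fold was 0.25 (adjusted p = 0.168).

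Fcgr2b also divided the border macrophages. Lyve1 and Cd163 are markers of perivascular and meningeal macrophages. In border macrophages with a UMI of either (356, 323 and 901 cells), Fcgr2b stood at 178, 260 and 266 CPM, against 84.3, 85.0 and 79.1 CPM in those with neither. The levels outside the subset were near those of microglia, and the log2 fold was 1.47 (SE 0.10, adjusted p = 7.3e-08, edgeR), where 23% of all genes passed and 12.5% were higher. Fcgr3 was also higher, at 703, 966 and 936 CPM against 555, 681 and 684 CPM (0.40, SE 0.05, adjusted p = 3.9e-05). Fcrls was lower, at 1298, 1617 and 1607 CPM against 1533, 2209 and 2294 CPM (-0.44, SE 0.05, adjusted p = 2.0e-05). Fcgrt, the neonatal Fc receptor that recycles IgG, was higher by 1.84 (SE 0.07, adjusted p = 1.6e-10). The split was not repeated in border macrophages with no P2ry12 and no Tmem119 UMI, which as a whole held 183, 265 and 315 CPM of Fcgr2b. The part of microglial RNA in these folds was not tested.

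Neutrophils with at least 20 UMIs of Ngp, a gene of secondary granules that marks immature neutrophils (276, 202 and 84 cells), had less Fcgr3 than those with fewer. The levels were 248, 331 and 315 CPM against 401, 538 and 615 CPM (log2 fold -0.50, SE 0.11, adjusted p = 0.00437, edgeR), where 22.1% of all genes passed and 11.2% were lower. Without macrophage markers they were 145, 247 and 229 CPM against 230, 474 and 498 CPM (-0.79, SE 0.22, adjusted p = 0.0195), where 15.5% of all genes passed. Fcgr1 (-0.88, adjusted p = 0.00961) and Fcrls (-0.69, adjusted p = 4.5e-04) were lower as gated, but in neutrophils without macrophage markers Fcrls did not pass (-0.53, adjusted p = 0.350) and Fcgr1 had too few counts to be tested.

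**Figure D4:**
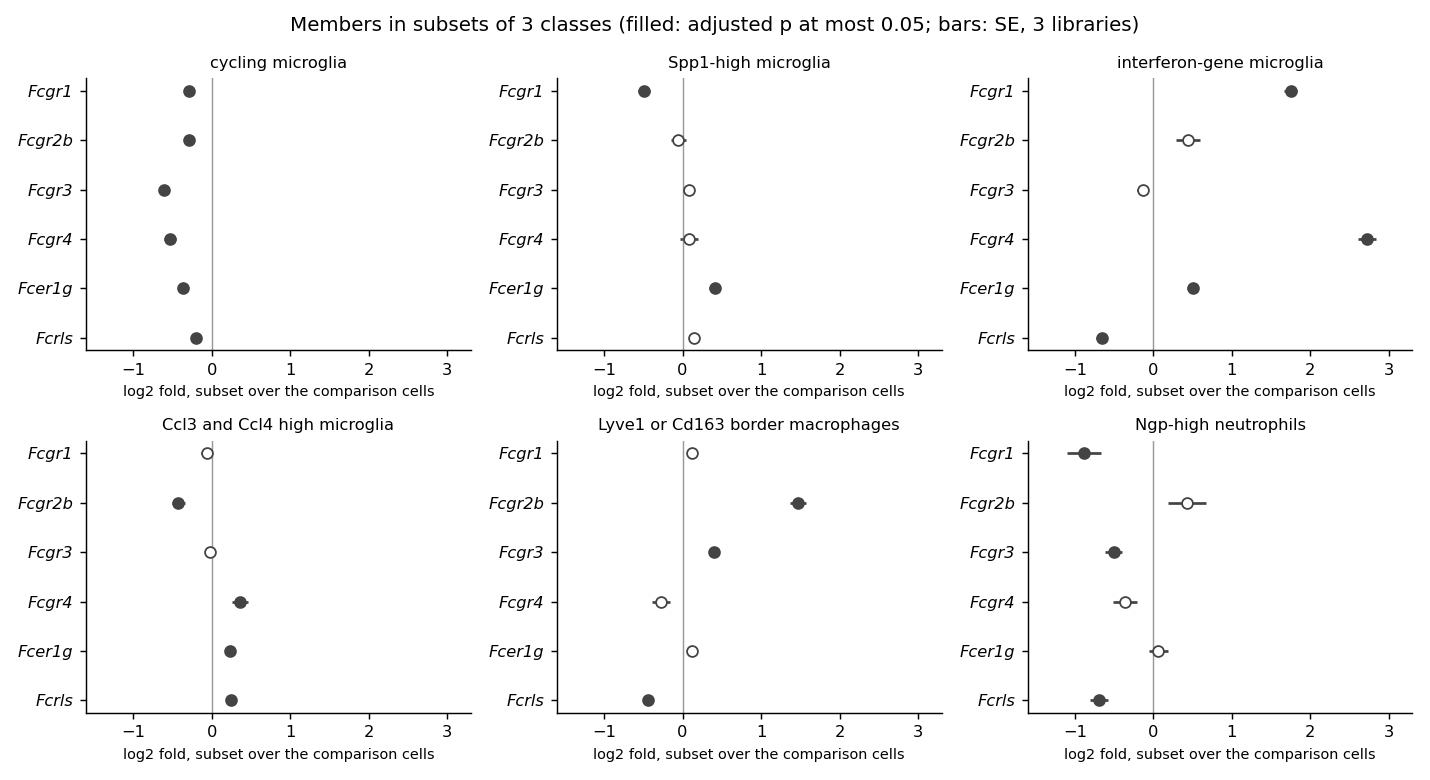
Log2 fold (with SE) of the 6 genes in 6 subsets over the cells outside each subset, from edgeR; filled points have an adjusted p of at most 0.05. Fcgr4 (2.73) and Fcgr1 (1.75) stand highest in interferon-gene microglia, Fcgr2b (1.47) in Lyve1 or Cd163 border macrophages, and all 6 lie below 0 in cycling microglia.

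The libraries were compared within classes as ratios of CPM, with exact conditional binomial intervals and no test. In microglia Fcrls, Fcgr3, Fcgr1 and Fcgr2b were higher in both poly(I:C) libraries than in saline, and Fcgr4 and Fcer1g stayed near 1 in the Ncr1-cre one. The ratios of Ncr1-cre poly(I:C) over saline were 1.42 for Fcrls (95% interval 1.40 to 1.43), 1.41 for Fcgr3 (1.39 to 1.44), 1.35 for Fcgr1 (1.31 to 1.40) and 1.24 for Fcgr2b (1.16 to 1.32). For Fcer1g it was 1.02 (1.01 to 1.03) and for Fcgr4 0.990 (0.919 to 1.07). None reached 1.5, the size set for naming a difference, which 5.59% of 6024 genes did. The median gene had a log2 ratio of 0.18, so part of these ratios is a shift of the whole profile, and under TMM Fcrls, Fcgr3 and Fcgr1 became 1.248, 1.24 and 1.19.

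The Gzmb-cko library stood close to the Ncr1-cre poly(I:C) library in microglia. Where 2.25% of all genes were past 1.5-fold, the ratios between them were 0.911 for Fcgr1, 0.974 for Fcgr2b, 0.964 for Fcgr3, 0.926 for Fcgr4, 1.17 for Fcer1g and 1.09 for Fcrls. Against saline, Fcrls of the Gzmb-cko library reached 1.54 (1.52 to 1.56), the only microglial ratio past 1.5, where 3.34% of all genes were. It ran from 1.40 to 1.58 over 12 alternatives and passed 1.5 in 5 of them. No saline library of the Gzmb-cko genotype was analysed, so a genotype difference and a changed response cannot be told apart.

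**Figure D5:**
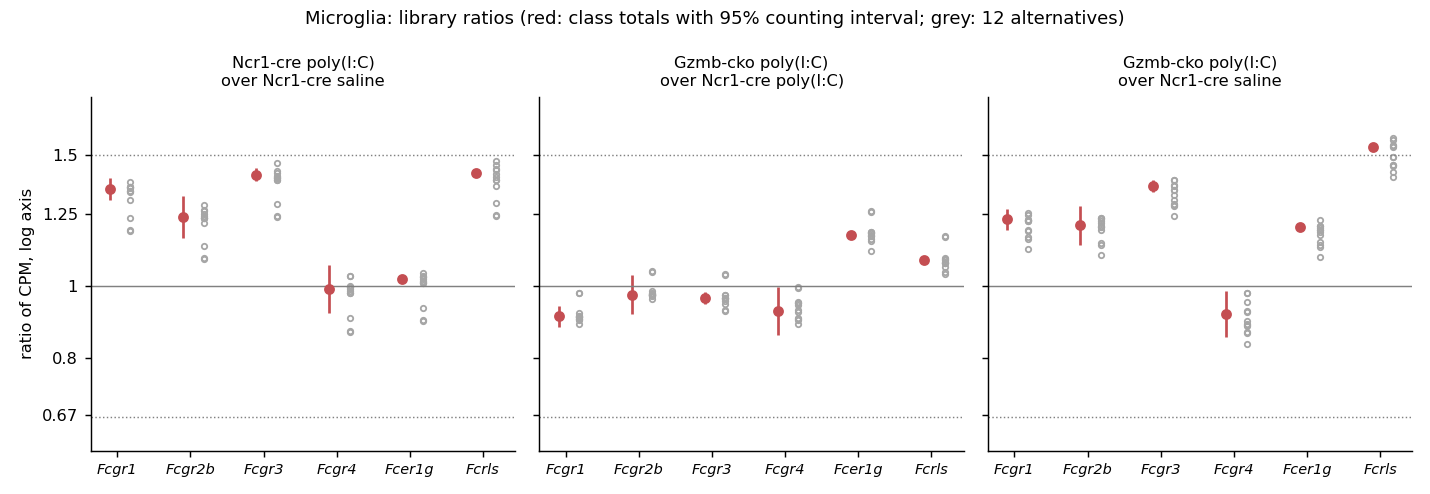
Ratios of CPM between libraries in microglia for the 6 genes, in red with 95% intervals, and in grey under 12 alternatives; the dotted lines mark 1.5-fold. Most main values lie within the lines, and Fcrls in Gzmb-cko poly(I:C) over saline lies at 1.54.

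Of 90 ratios over the 5 classes and 6 genes, 82 met the minimum of 100 UMIs over both libraries and 20 CPM in the higher one, and 8 of these were past 1.5-fold. The other 8, all of Fcgr1, Fcgr2b and Fcgr4 in B cells, held too few UMIs to be judged. In monocytes Fcrls was lower with Ncr1-cre poly(I:C) than with saline (0.474, 95% interval 0.439 to 0.512) and higher with Gzmb-cko than with Ncr1-cre poly(I:C) (2.31, 2.13 to 2.50). P2ry12 in the same monocytes was at 201, 135 and 194 CPM, and its part in these ratios was not tested. In these pairs 18.1% and 6.32% of all genes of monocytes were past 1.5-fold. For Fcgr2b of monocytes (84.4, 102 and 139 CPM), Gzmb-cko over saline was 1.64 (1.44 to 1.87), where 7.41% of genes were past 1.5-fold. None of the ratios of border macrophages as gated was past 1.5-fold, where 10.4, 3.27 and 3.92% of all genes were in the 3 pairs. Fcgr2b came near it, at 114 CPM in saline and 170 CPM in Gzmb-cko. In border macrophages without microglial markers it was at 183 and 315 CPM, which is past 1.5-fold. In neutrophils Fcrls was higher with Gzmb-cko than with Ncr1-cre poly(I:C) (2.17, where 24.2% of all genes were past 1.5-fold) and than with saline (1.52, where 15.3% were), and none was past it for Ncr1-cre poly(I:C) over saline, where 30.3% of all genes were. Fcgr2b (1.59) was higher with Gzmb-cko than with Ncr1-cre poly(I:C), beside P2ry12 at 221, 218 and 312 CPM. Without macrophage markers these became 0.914 and 0.751 for Fcrls and 0.770 for Fcgr2b. In B cells Fcgr3 had a ratio of 1.57 for Ncr1-cre poly(I:C) over saline (1.18 to 2.08), which was 0.823 without the markers and rests on few cells. Of all genes of B cells 28.3, 27.6 and 15% were past 1.5-fold in the 3 pairs.

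The genes around the receptors were taken from lists of signalling kinases and adaptors (16 tested) and inhibitory phosphatases and regulators (11). Further lists held other Fc-binding or Fc receptor-like genes (5) and other receptors, called gamma chain partners here (7). The last of them includes Pirb, which is an inhibitory receptor. Between microglia and monocytes, 11 kinases and adaptors were lower in microglia and 3 higher (list median log2 fold -0.51, all genes 0.04), and 8 of the phosphatases were lower and 2 higher. Fgr (-5.28), a Src family kinase of myeloid cells, was lower, and Blnk (2.17) and Fyn (1.24) were higher. All 7 gamma chain partners were lower, among them Pira2 (-5.55), Clec4d (-5.42), Clec4e (-5.25) and Clec4n (-4.46), the last 3 being lectin receptors for microbial and damaged-cell ligands. Dok2 (-3.06), Dok3 (-2.57) and Ptpn6 (-1.04), which restrain receptor signalling, were lower as well. These counts stand against 26.3% of all genes higher and 27.1% lower.

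Between microglia and border macrophages, 2 of 16 kinases and adaptors passed, as did 2 of 11 phosphatases and regulators, 1 of 5 other Fc-binding genes and 3 of 7 gamma chain partners, where 10.5% of all genes did. Blnk (0.67) and Lat2 (0.59) were the only kinases or adaptors that passed. Fcgrt was lower in microglia, with means of 155 and 433 CPM (log2 fold -1.46, SE 0.18, adjusted p = 3.8e-05, edgeR), and so were Dok2 (10.4 and 54.9 CPM, -2.60) and Clec4n (6.68 and 38.3 CPM, -2.99). Against neutrophils, 9 kinases and adaptors and 6 gamma chain partners were lower in microglia, and 3 and 0 were higher. Of all genes, 25.6% were lower and 21.3% higher, but on class totals 11.8% were lower and 63.6% higher, so the split over all genes depends on the scaling. The Fc receptor-like gene Fcrla (mean 164 CPM) and Fcmr (21.2 CPM), the IgM receptor, were found in B cells.

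In interferon-gene microglia, 8 of 16 kinases and adaptors were higher and none lower, among them Fgr (2.60), Prkcd (0.67) and Lcp2 (0.62). Of the 7 genes listed as gamma chain partners 5 were higher and none lower, with Clec4n at 2.76 and the inhibitory Pirb at 1.46. Trim21, an intracellular Fc receptor induced by interferon, was higher by 1.95 (SE 0.32, adjusted p = 1.2e-05, edgeR), and Fcgrt was not (-0.09, adjusted p = 0.744). Of all genes, 7.27% were higher and 3.16% lower in this subset, or 4.76 and 22.1% on class totals. The monocyte genes Ccr2 and Plac8 were higher in the same cells, while Ly6c2 was not higher in each library. Syk (means 70.5, 68.7, 117, 105 and 148 CPM in microglia, border macrophages, monocytes, neutrophils and B cells) and Inpp5d (187, 154, 106, 91.7 and 118 CPM), the effectors named above for the activating and the inhibitory side, were found in all 5 classes. None of the 14 kinases and adaptors or of the phosphatases compared in microglia was past 1.5-fold between any 2 libraries, where 5.59, 2.25 and 3.34% of all genes were, so nothing is read from it.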

How the data were processed

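The deposited tables hold raw UMI counts for each gene and cell barcode of the 3 libraries, with no normalization. The software version differs between sources: Cell Ranger 5.0.0 per the file headers, and Cell Ranger 3.0.1 with STAR and mm10 per the submitters' processing notes. The sources used here do not say how barcodes were called as cells. A cell was kept if it had 500 or more genes and no more than 10% mitochondrial UMIs. The totals before this filter were 89295907, 85442198 and 105574073 UMIs in 13820, 14887 and 15306 barcodes.

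For tests, a cell of the microglial gate that met 1 other gate was given to that gate, and cells that met several other gates were left out. Sums were tested with edgeR 4.0.16 (quasi-likelihood, TMM, filterByExpr, library as a term) in R 4.3.3 at an adjusted p of 0.05; the script was first tested on simulated counts. Ratios between libraries were compared with 1.5 where the higher library had at least 20 CPM and both together at least 100 UMIs. Scrublet, run through scanpy 1.11.5, called 387, 281 and 626 doublets, which were kept in the main values and left out as an alternative. DESeq2 1.42.0 was another alternative. Intervals cover counting error only; a count of 0 was taken to allow 3 counts.

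All 6 members are named, and of each pathway list at most the 4 largest folds in a comparison with at least 20 CPM in the higher group, plus the effectors of the 2 kinds of receptor. The 4 genes most like each member were taken from those with at least 50 CPM in a sum. The members, gene lists and gates were chosen with earlier results of these data known. Clec7a and immunoglobulin constant genes were not analysed here, and genes that the naming rule took but that are not named are not reported here.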

Additional observations from a re-analysis of the deposited data

Results flagged for a closer look

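For Fcrls the ratio of Ncr1-cre poly(I:C) over saline pointed up in some classes and down in others. It was 1.42 in microglia, 1.36 in border macrophages and 1.33 in B cells, but 0.474 in monocytes and 0.697 in neutrophils. With 1 library for each group, the difference between classes was not tested. P2ry12 was at 798 and 1260 CPM in microglia of these 2 libraries, and at 201 and 135 CPM in monocytes. In monocytes without P2ry12 and Tmem119 UMIs, Fcrls was at 80.6 and 28.0 CPM, where background cells of these libraries held 36.5 to 65.5 and 28.0 to 62.9 CPM.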

How the results depend on the processing

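Of 1186 recomputed values, 1064 kept their direction and their side of the threshold, and 23 changed direction. The members passed 43 of 60 class tests; without 1 library they passed 32 to 43, the lowest without Gzmb-cko. The 16 of 24 microglial subset tests became 4 with no library term in the model, the 3 of 6 tests in border macrophages became 1, and the 3 of 6 in neutrophils became 0 and, without macrophage markers, 1; the library differences in level then enter the error. With the library term, classes and subsets were compared within libraries. Libraries of different groups could not be paired, because each group has 1 library and the labels give no replicate numbers.

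On class totals with no scaling factor (an alternative chosen, like those without macrophage or other myeloid markers, after seeing the data), log2 folds turned for Fcer1g in microglia over neutrophils (0.27) and border macrophages over neutrophils (0.55, adjusted p = 0.00206, edgeR), Fcgr3 in monocytes over neutrophils (0.28), Fcgr1 and Fcrls in neutrophils over B cells (-0.50 and -0.42), Fcgr3, Fcgr4 and Fcrls in Spp1-high microglia (-0.077, -0.073 and -0.019) and Fcer1g in Ngp-high neutrophils (-0.23). Stricter gates turned Fcgr4 in monocytes over neutrophils (-0.041), Fcgr3 and Fcgr4 in Spp1-high microglia (-0.025 and -0.0093) and Fcer1g in Lyve1 or Cd163 border macrophages (-0.075). Overlapping gates turned Fcgr2b in microglia over neutrophils (-0.050), leaving out doublets turned Fcer1g in Ngp-high neutrophils (-0.0015), and leaving out cells with microglial markers turned Fcrls in monocytes over B cells (0.87). Leaving out 1 library in turn, the folds ran from -0.27 to 0.0071 for Fcer1g in border macrophages over neutrophils, from -0.062 to 0.47 for Fcgr4 in monocytes over neutrophils, from -0.20 to 0.028 for Fcgr2b and -0.12 to 0.24 for Fcgr4 in Spp1-high microglia, and from -0.11 to 0.037 for Fcgr1 and -0.065 to 0.011 for Fcgr3 in Ccl3 and Ccl4 high microglia. The cause of these changes was not tested; the main values of all of these but Fcer1g in microglia over neutrophils and Fcrls in monocytes over B cells had missed the threshold.

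Without scaling, genes called higher and lower moved from 2998 and 3096 to 4587 and 2138 for microglia over monocytes, from 2427 and 2928 to 7259 and 1342 over neutrophils, from 2703 and 2850 to 4433 and 1842 for border macrophages over monocytes and from 2217 and 2770 to 7374 and 1225 over neutrophils. They moved from 1756 and 2334 to 4671 and 1058 for monocytes over neutrophils, from 2086 and 1633 to 1465 and 2322 for monocytes over B cells and from 2386 and 1725 to 1018 and 4193 for neutrophils over B cells. In cycling microglia they moved from 2693 and 2679 to 3615 and 1793, in Spp1-high microglia from 2057 and 1546 to 1167 and 2600, in interferon-gene microglia from 907 and 395 to 594 and 2763, and in Ngp-high neutrophils from 804 and 835 to 438 and 1519. The median gene then lay at 0.29 for microglia over monocytes, 0.79 over neutrophils and -0.40 in interferon-gene microglia.

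The 8 ratios past 1.5-fold became 5 under TMM, 5 with mitochondrial, ribosomal and hemoglobin genes left out of the total, 15 as the mean of per-cell CPM, 14 without cycling cells and 13 without macrophage markers. That last setting turned the neutrophil ratios between the poly(I:C) libraries for Fcgr2b (0.770) and Fcrls (0.914), that of Gzmb-cko over saline for Fcrls (0.751), and the B cell ratio of Fcgr3 (0.823, and 0.772 as the mean of per-cell CPM). The summed level of the 6 genes in microglia, 5581 CPM, became 7620 with those genes left out of the total, and the 91.2% of microglia with a Fcgr3 UMI became 71.3% when thinned and 93.5% above the UMI floor of the saline library. B cells, with 38 to 61 cells in a library, limit what their levels can show.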
